A study of Mus musculus with 19 samples.

Results

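The 10 genes of actin branching and turnover described here were measured in sorted cells of the inflamed mouse central nervous system: the Arp2/3 complex subunit genes Arpc1b, Arpc2, Arpc3, Arpc4, Arpc5, Actr2 and Actr3, the actin-severing protein gene Cfl1, the monomer-binding protein gene Pfn1 and the phosphatase gene Ssh2. Arpc1b and Ssh2 were selected on their pattern in microglia, so their microglial values are given as a description with no test. The other 8 were listed as genes of the same machinery. The microglia table held all 10 among 3067 genes and the monocyte table all 10 among 3776. The astrocyte table held 9 among 6376, and Arpc4 was not analysed there.

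All mice were wild-type female C57Bl/6 animals at postnatal day 85 with experimental autoimmune encephalomyelitis (EAE). This model of multiple sclerosis was raised by immunizing each mouse against MOG35-55, a fragment of a myelin glycoprotein, at a dose of 25 µg emulsified with Freund's complete adjuvant. Each mouse had first received a lentivirus in the brain, either one carrying an shRNA against Xbp1 (shXbp1; vector pLenti-Gfap-GFP-shXbp1) or one carrying a scrambled shRNA (shScrmbl; vector pLenti-Gfap-GFP-shScramble). The vectors name Gfap, the gene of an astrocyte intermediate filament protein, and a green fluorescent protein. The hairpins were therefore aimed at astrocytes, and microglia and monocytes were read out as neighbouring cells of the same injected animals. Sorted cells gave 19 libraries of 3′ digital gene expression, an assay that counts the 3′ ends of transcripts. Astrocytes had 4 shXbp1 and 4 shScrmbl libraries, microglia 3 shXbp1 and 4 shScrmbl, and monocytes 2 of each. Values are the deposited normalized signal per gene, and the 3 tables were normalized separately.

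Depth limits what these libraries can show. Their recovered counts totalled 10039 to 302003, and 1 count was worth a signal of 4.22 to 76.0. The shXbp1 microglia were shallower, at 10039 to 46586 counts, than the shScrmbl microglia, at 17892 to 122002 counts. Xbp1 itself was barely counted: in astrocytes its signal was 34.1, 52.9, 31.2 and 79.7 in shXbp1 libraries, against 20.1, 71.7, 79.9 and 27.6 in shScrmbl libraries. These values overlapped, with an adjusted p of 0.966 by limma, so they do not check the labels. Markers of the sorted type were present, with all 15 microglial markers in the microglia table and 12 of 13 astrocyte markers in the astrocyte table, where Gfap was not analysed. The choroid plexus and ependyma list nevertheless summed to 147462 to 272558 in shXbp1 astrocytes and 211720 to 306999 in shScrmbl astrocytes, far above the astrocyte list at 1228 to 1654 in shXbp1 and 903 to 1465 in shScrmbl. In microglia the 3 measured genes of that list summed to 33254 to 42951 in shXbp1 and 18000.0 to 63792 in shScrmbl, above the 15 microglial markers in 6 of 7 libraries. In monocytes the 2 measured genes of that list summed to 5192 to 8039 in shXbp1 and 3745 to 4826 in shScrmbl. The monocyte markers summed to 6724 to 19261 in shXbp1 and 22673 to 23979 in shScrmbl monocytes. The astrocyte table also held all 15 microglial markers, which summed to 1946 to 2570 in shXbp1 and 1705 to 5617 in shScrmbl astrocytes. Its 7 measured oligodendrocyte lineage markers of 9 summed to 2125 to 6941 in shXbp1 and 2796 to 5598 in shScrmbl astrocytes. Both sums were above that of the astrocyte list in every astrocyte library. Libraries are therefore called by their label, with these limits.

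The Arp2/3 complex nucleates a new actin filament on the side of an existing one and so builds the branched network that pushes the cell edge forward. Actr2 and Actr3 encode its actin-like core, Arpc2 and Arpc4 its central scaffold, and Arpc3, Arpc5 and Arpc1 its flanking subunits. ARPC1 and ARPC5 each exist as a pair of isoforms from separate genes, and in humans ARPC1B is the form that prevails in blood cells. Cofilin, the product of Cfl1, severs aged filaments, profilin returns monomers to growing ends, and the slingshot phosphatases switch cofilin on by removing an inhibitory phosphate. Microglia and monocytes use this cycle to extend processes, migrate and engulf.

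The promoters of the pair of genes selected in microglia are shown here because the microglial pattern below turns on them. Each runs from 250 bases before to 50 bases after the RefSeq start on GRCm38.p6, and capitals mark the motifs found. The Arpc1b promoter lies at chr5:145114006-145114305 on the plus strand and overlaps the start of the gene, which GENCODE M21 places at chr5:145114215-145130705. The Ssh2 promoter is that of the upstream start, at chr11:77216175-77216474 on the plus strand, and the gene spans chr11:77216287-77460220. The other genes lie, in GRCm38 coordinates of GENCODE M21, at chr1:74236084-74268209 (Arpc2), chr5:122391878-122414184 (Arpc3), chr6:113378115-113390448 (Arpc4), chr1:152766542-152775597 (Arpc5), chr11:20062304-20112913 (Actr2), chr1:125392905-125435727 (Actr3), chr19:5490455-5495201 (Cfl1) and chr11:70651850-70654644 (Pfn1). All 10 are protein-coding, on the minus strand for Actr2, Actr3 and Pfn1 and on the plus strand for the others.
Arpc1b: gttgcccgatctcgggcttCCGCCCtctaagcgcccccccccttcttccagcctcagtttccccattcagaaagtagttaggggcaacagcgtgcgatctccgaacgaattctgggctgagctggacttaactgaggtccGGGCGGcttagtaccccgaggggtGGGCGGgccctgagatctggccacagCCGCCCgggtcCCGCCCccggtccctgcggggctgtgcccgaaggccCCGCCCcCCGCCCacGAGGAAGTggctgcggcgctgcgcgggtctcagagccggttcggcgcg
Ssh2: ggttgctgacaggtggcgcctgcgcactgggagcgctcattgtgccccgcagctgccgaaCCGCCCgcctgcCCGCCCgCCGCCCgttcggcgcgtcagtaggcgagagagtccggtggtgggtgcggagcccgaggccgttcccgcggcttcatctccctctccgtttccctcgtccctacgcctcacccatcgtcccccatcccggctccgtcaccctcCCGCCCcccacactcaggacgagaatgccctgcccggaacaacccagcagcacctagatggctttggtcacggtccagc

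Motifs were searched on both strands in the 11 promoters of the 10 genes and in all 32851 promoters of the same length. GGGCGG, the core of the GC box, was in 10 of the 11, which belong to 9 genes, all but Arpc4, and in 35.7% of all promoters. GAGGAAGT, the core of a PU.1 site, was in the Arpc1b promoter and in none of the other members' promoters, against 3.20% of all promoters. CCAAT was in 3 of the 11, those of Actr2, Arpc5 and Cfl1, and in 37.4% of all. The CArG box, the element of serum response factor, was in that of Arpc4 and in 1.63% of all, and TGACGT was in none of the 11 and in 7.51% of all. These matches describe letters in the windows and say nothing about binding.

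Arpc1b was low in every shXbp1 microglia library. Its signal was 228, 138 and 383 in shXbp1 microglia, against 675, 732, 616 and 840.0 in shScrmbl microglia. The highest shXbp1 library lay below the lowest shScrmbl library. The means were 249.7 ± 124 in shXbp1 (SD, n = 3) and 715.7 ± 95.4 in shScrmbl (SD, n = 4), a ratio of 0.349, and the limma difference was -1.63 on the log2(signal + 1) scale with a 95% interval of -2.51 to -0.75. On recovered counts edgeR gave a log2 difference of -1.31. Bulk RNA from sorted cells cannot tell fewer cells of a type from less RNA per cell. The values rested on few counts, namely 3, 2 and 16 in the shXbp1 libraries and 13, 58, 66 and 21 in the shScrmbl libraries.

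Ssh2 showed the opposite pattern in the same libraries. Its signal was 304, 414 and 311 in shXbp1 microglia, against 156, 164, 121 and 40.0 in shScrmbl microglia. All 3 shXbp1 libraries stood above all 4 shScrmbl libraries. Ssh2 averaged 343.1 ± 61.5 in shXbp1 (SD, n = 3) and 120.3 ± 56.6 in shScrmbl (SD, n = 4), a ratio of 2.85, with a limma difference of 1.67 and a 95% interval of 0.55 to 2.80. The counts were 4, 6 and 13 in shXbp1 libraries and 3, 13, 13 and 1 in shScrmbl libraries. Over all microglial genes, the viruses were fully separated in 2.32% with shXbp1 higher and in 4.92% with shXbp1 lower. Both genes were chosen for such a pattern, so nothing is read from these shares.

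**Figure D1:**
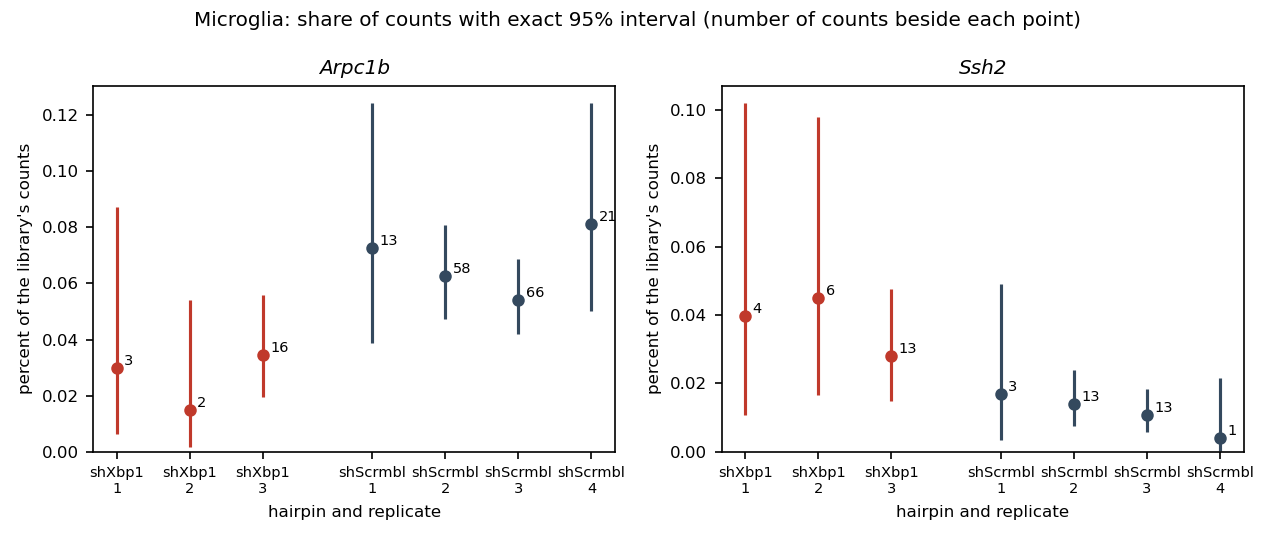
Arpc1b and Ssh2 as a percent of all counts in each microglia library, with exact 95% binomial intervals of counting error and the counts printed, shXbp1 left of shScrmbl. All 3 shXbp1 points of Arpc1b (0.0150% to 0.0343%) lie below the shScrmbl points (0.0541% to 0.0813%), with intervals that overlap, and the points of Ssh2 lie the other way.

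Counting error is wide at this depth. As a share of all counts, Arpc1b made up 0.0299%, 0.0150% and 0.0343% in shXbp1 microglia, against 0.0727%, 0.0625%, 0.0541% and 0.0813% in shScrmbl microglia. The exact binomial intervals of single libraries overlapped between the viruses for both genes: for Arpc1b the interval of the first shXbp1 library was 0.00616% to 0.0873% and that of the third shScrmbl library 0.0418% to 0.0688%.

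The other Arp2/3 genes did not show the microglial gap of Arpc1b. Arpc2, the scaffold subunit, had 456, 414 and 287 in shXbp1 microglia, against 259.5, 479.5, 364 and 400.0 in shScrmbl microglia. The groups lay on top of each other, and the limma difference was 0.04 with a 95% interval of -0.84 to 0.93 (adjusted p = 0.997). Arpc3 had 76.0, 345 and 431 in shXbp1 microglia, against 259.5, 379, 495 and 400.0 in shScrmbl microglia. Only the first shXbp1 library, the shallowest, stood below the shScrmbl range (difference -0.73, 95% interval -1.79 to 0.33, limma adjusted p = 0.814).

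Arpc5 and the core genes were counted too rarely for a narrow interval. Arpc5 had 76.0, 69.0 and 168 in shXbp1 microglia, against 104, 63.1, 112 and 80.0 in shScrmbl microglia. Actr3 had 0, 207 and 168 in shXbp1 microglia, against 51.9, 177, 112 and 80.0 in shScrmbl microglia. Neither gene separated the viruses, with limma intervals of -1.66 to 1.92 for Arpc5 and -5.18 to 2.07 for Actr3. Actr2 was at 0 in 2 of 3 shXbp1 and 2 of 4 shScrmbl libraries, and Arpc4 at 0 in 2 of 3 shXbp1 libraries and in no shScrmbl library. Arpc4 had 2 counts in shXbp1 microglia and 15 in shScrmbl microglia, and its interval ran from -8.12 to 1.29 (limma adjusted p = 0.814).

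The severing and monomer genes overlapped between the viruses as well. Cfl1 had 76.0, 69.0 and 47.9 in shXbp1 microglia, against 0, 139, 140.0 and 80.0 in shScrmbl microglia. Its direction depended on the scale, at 0.85 by limma and -0.97 by edgeR, with 1 shScrmbl library at 0. Pfn1 had 0, 138 and 168 in shXbp1 microglia, against 0, 63.1, 46.7 and 40.0 in shScrmbl microglia. Each virus had 1 library without Pfn1 counts, and edgeR gave 1.37 (adjusted p = 0.925) where limma gave 0.61 with an interval of -4.21 to 5.42.

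Of the 8 genes not selected on microglia, none passed an adjusted p of 0.05, none an unadjusted p of 0.05 by limma or edgeR, and none separated the viruses. Over the whole microglia table limma called 0%, edgeR called 0.391%, and 5.41% had an unadjusted limma p under 0.05. Of the 8, 4 had a higher mean log signal in shXbp1 microglia and 4 a lower one. Their median difference was -0.34, beside -0.39 over all genes.

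**Figure D2:**
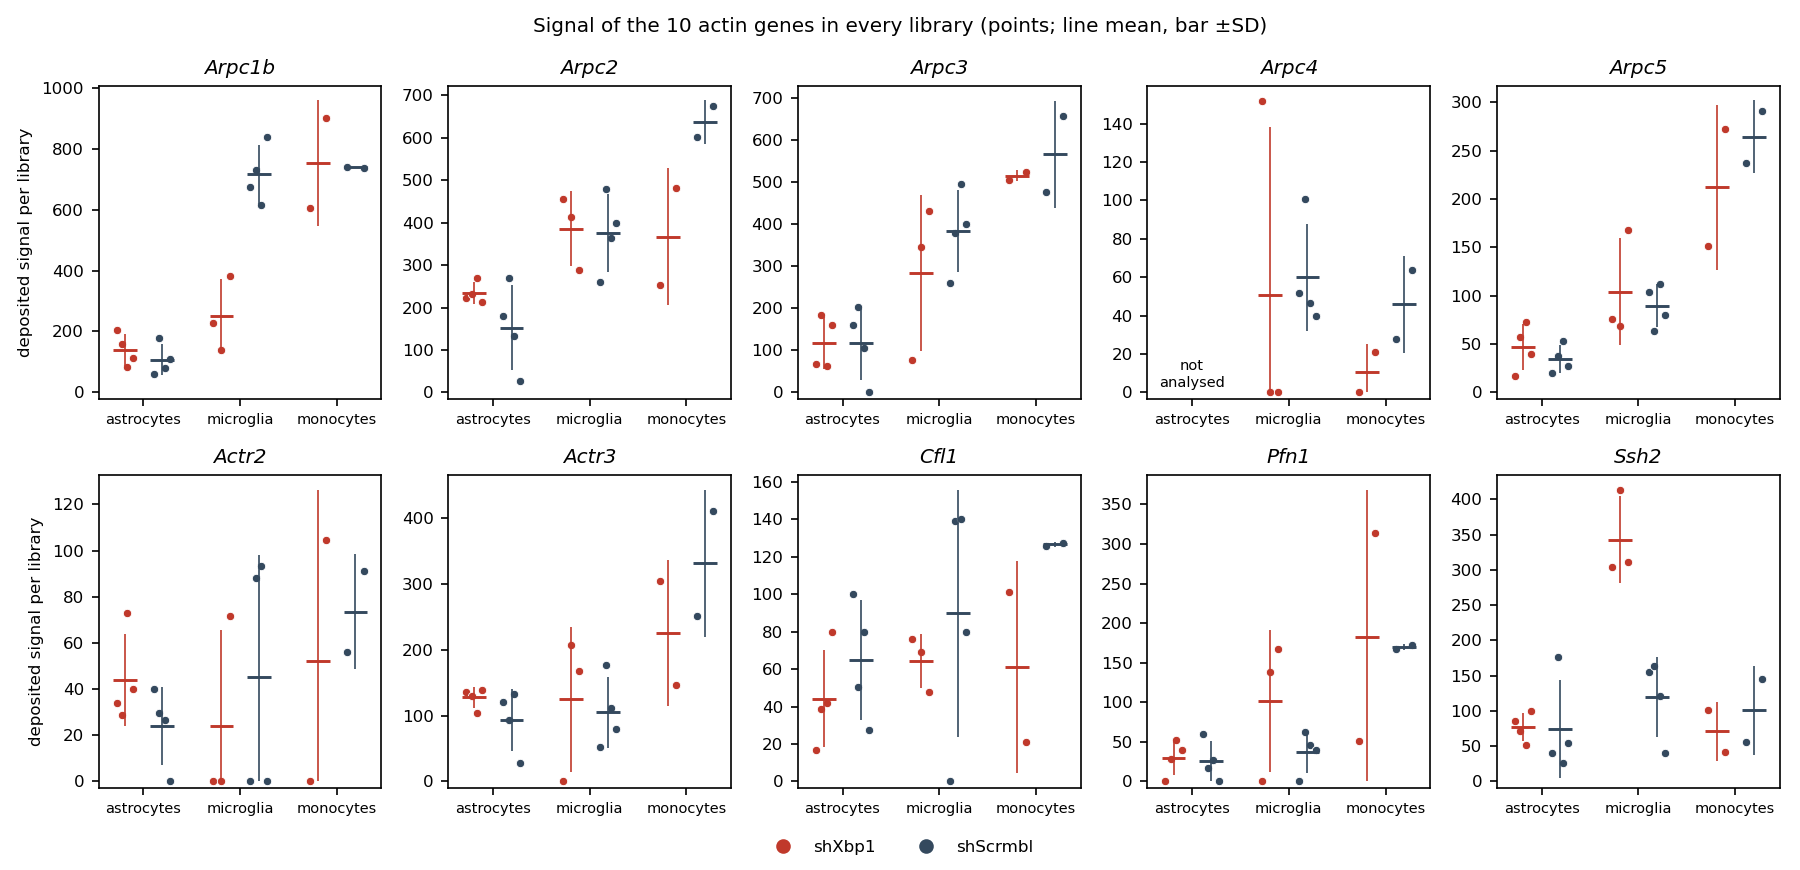
Normalized signal of the 10 genes in every library, 1 panel per gene, with each cell type's shXbp1 libraries left of its shScrmbl libraries, horizontal lines at the group means and vertical bars of ±SD cut at 0. The microglia of Arpc1b (138 to 383 in shXbp1, 616 to 840.0 in shScrmbl) and of Ssh2 (304 to 414 in shXbp1, 40.0 to 164 in shScrmbl) are apart, and no other microglia panel is.

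Within the complex, Arpc1b took a smaller share of the subunit counts in shXbp1 microglia. The share was 23.1%, 11.8% and 25.4% of the counts of the 7 subunit genes in shXbp1 libraries, against 48.1%, 36.3%, 33.5% and 45.7% in shScrmbl libraries. The largest shXbp1 share was below the smallest shScrmbl share. Because Arpc1b was selected on this contrast, its share is also a description. The summed signal of the 6 other subunits was 760.0, 1035 and 1125 in shXbp1 microglia, against 727, 1287, 1223 and 1000.0 in shScrmbl microglia. This sum averaged 973 ± 190 in shXbp1 (SD, n = 3) and 1059 ± 254 in shScrmbl (SD, n = 4), which differ by less than either spread.

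Arpc1a, the gene of the alternative isoform, offers a comparison within each library that the scaling of a table cannot shift. In microglia, Arpc1b supplied 21 of 24 ARPC1 counts over the shXbp1 libraries (87.5%) and 158 of 185 over the shScrmbl libraries (85.4%). Single libraries ran from 66.7% to 100% with shXbp1 and from 72.4% to 100% with shScrmbl. The ranges of the isoform share overlapped, and with 3 ARPC1 counts in each of the first and second shXbp1 libraries a modest shift could not be seen. Arpc1a averaged 39.0 ± 35.4 in shXbp1 microglia and 133 ± 136 in shScrmbl microglia (SD, n = 3 and 4), which overlapped.

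**Figure D3:**
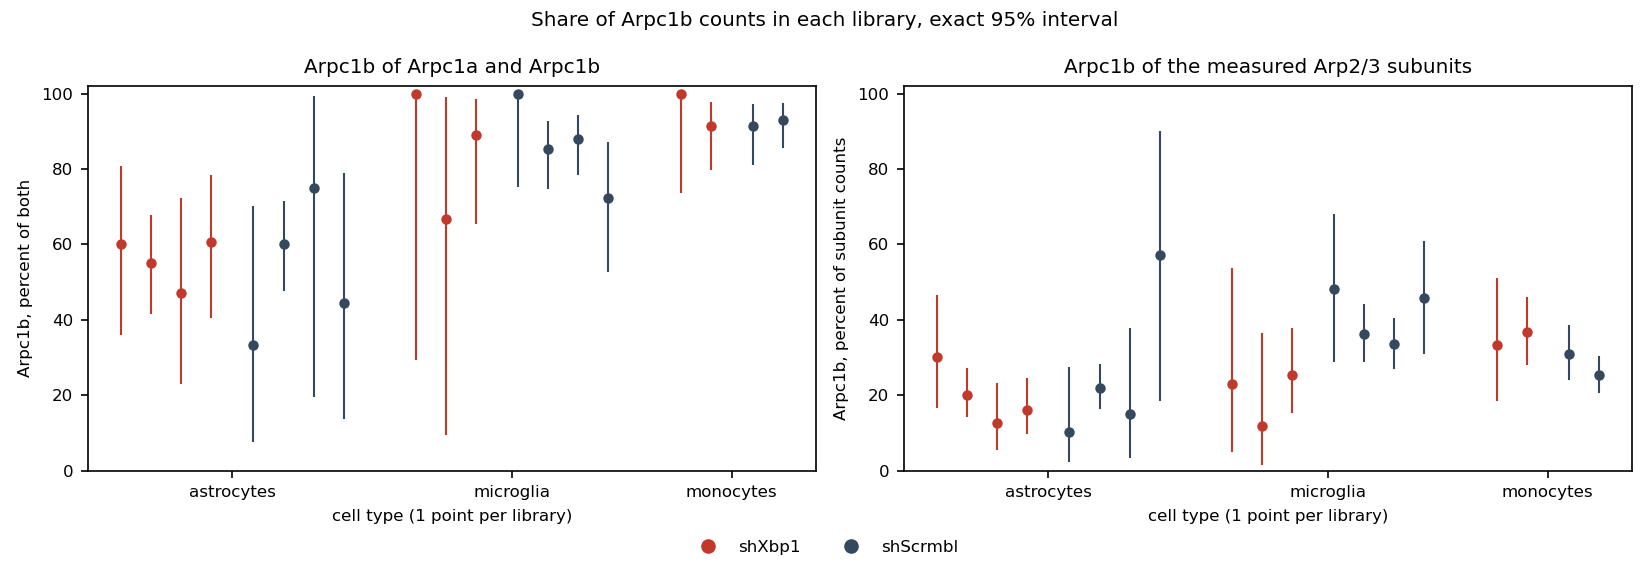
Arpc1b as a percent of Arpc1a plus Arpc1b counts (left) and of the measured Arp2/3 subunit counts (right), 1 point per library with exact 95% intervals, shXbp1 left of shScrmbl. In microglia the left share is 66.7% to 100% in shXbp1 and 72.4% to 100% in shScrmbl, and the right share 11.8% to 25.4% in shXbp1 and 33.5% to 48.1% in shScrmbl.

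The isoform balance differed in level between the sorted cells. Arpc1b supplied 56.0% of ARPC1 counts in shXbp1 astrocytes (70 of 125) and 56.5% in shScrmbl astrocytes (52 of 92). In monocytes it supplied 93.2% with shXbp1 (55 of 59) and 92.4% with shScrmbl (134 of 145). Astrocyte libraries held counts of both isoform genes in similar number, whereas those of microglia and monocytes came mostly from Arpc1b. The second shScrmbl astrocyte library alone held 42 Arpc1b counts of 70 ARPC1 counts. In that library microglial markers summed to 5617 and monocyte markers to 4744. The part of such cells in the astrocyte shares was not tested.

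Marker genes of infiltrating myeloid cells moved with Arpc1b in microglia. All 14 measured genes of the 16 on the monocyte and macrophage list had a lower mean log signal in shXbp1 microglia. Their median difference was -2.11, beside -0.39 over all genes. Of these 14, edgeR called 3, beside 0.391% of all genes. Their summed signal was 2280, 9659 and 4956 in shXbp1 libraries, against 5917, 26827, 16103 and 8840.0 in shScrmbl libraries. These sums overlap, since the second shXbp1 library exceeded the first and the fourth shScrmbl libraries. In that library, with a sum of 9659, Arpc1b was at 138, from 2 counts. In the first shScrmbl library, with a sum of 5917, it was at 675, from 13 counts. Arpc1b was selected for its low shXbp1 values, so nothing is read from this pair of libraries. Ccr2, the chemokine receptor of inflammatory monocytes, was at 0 in 2 of 3 shXbp1 libraries and in none of the shScrmbl libraries. Ly6c2, a surface marker of the same cells, was at 0 in 2 of 3 shXbp1 and 1 of 4 shScrmbl libraries. Plac8, of the same list, was at 0 in no library, at 47.9 to 76.0 in shXbp1 and 37.3 to 156 in shScrmbl. One limit is the floor: 1 count was worth 23.9 to 76.0 in shXbp1 microglia, and Ccr2 ran from 28.0 to 177 in shScrmbl. The microglial list summed to 12488 to 20063 in shXbp1 libraries and 13703 to 19840 in shScrmbl libraries. Of its 15 genes, 9 were higher in shXbp1 by limma and 12 by edgeR, and edgeR called 0. Their medians were 0.22 by limma and 0.38 by edgeR, beside -0.39 and -0.09 over all genes. Lists of 2 further cell types separated the viruses. The 5 measured lymphocyte markers of 11 summed to 152, 276 and 239 in shXbp1 libraries, against 727, 366, 457 and 280.0 in shScrmbl libraries, the direction of Arpc1b. The 2 measured oligodendrocyte lineage markers of 9 summed to 760.0, 1518 and 670.4 in shXbp1 libraries, against 467, 366, 345 and 520.0 in shScrmbl libraries. This was the direction of Ssh2, and edgeR called 1 of the 2, beside 0.391% of all genes. The part of these markers, and of the lower depth of the shXbp1 libraries, in the Arpc1b and Ssh2 values was not tested.

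Neutrophil markers were also mostly lower in mean log signal, though not in every library. The 7 measured genes of the 10 on that list summed to 1140, 414 and 766 in shXbp1 microglia and 882 to 952 in shScrmbl microglia. The first shXbp1 library thus had the highest sum, and in the second 5 of the 7 markers were at 0. Of the 7, 5 had a lower mean log signal in shXbp1 by limma and 6 by edgeR. Their medians were -2.28 by limma and -0.67 by edgeR, beside -0.39 and -0.09 over all genes. Ngp, a neutrophil granule protein gene, was the gene most like Arpc1b over the 7 microglia libraries (Pearson r = 0.97 among 1520 genes with a mean signal of at least 100). Ngp averaged 7.98 ± 13.8 in shXbp1 and 185 ± 57.5 in shScrmbl (SD, n = 3 and 4). It reached that minimum only through the shScrmbl libraries. Its shXbp1 mean lay below the signal of 1 count in any shXbp1 microglia library (23.9 to 76.0). Arpc1b was selected for its low shXbp1 values, so the gene most like it was low there by selection. B2m, the light chain of MHC class I, followed at r = 0.96 and Sec61g, a translocon subunit gene, at r = 0.94. Those most like Ssh2 were Strada, an LKB1 partner, and Cdk9, a transcription elongation kinase, both at r = 0.98, and the tropomyosin gene Tpm3 at r = 0.96. Arpc1b and Ssh2 themselves had r = -0.81, and Arpc1b against the other members had r from -0.22 to 0.53. Arpc1b and Ssh2 were selected on this contrast, so their r of -0.81 and the genes most like them follow from that choice. Cdk9 reached the minimum only through shXbp1 (206 against 88.5 in shScrmbl). The 7 libraries differed in depth and in marker sums, whose part in these coefficients was not tested.

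In monocytes the Arpc1b levels of the viruses coincided. Its signal was 607 and 900.3 in shXbp1 monocytes, against 741 and 738 in shScrmbl monocytes. The shXbp1 pair bracketed the shScrmbl pair, and the limma interval ran from -1.27 to 1.27 (adjusted p = 0.9999). Ssh2 had 101 and 41.9 in shXbp1 monocytes, against 55.9 and 146 in shScrmbl monocytes, which overlapped (difference -0.47, 95% interval -2.12 to 1.19, limma adjusted p = 0.896). The difference between microglia and monocytes was not tested.

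In monocytes 3 genes had both shXbp1 libraries below both shScrmbl libraries. Arpc2 had 253 and 482 in shXbp1 monocytes, against 601 and 674 in shScrmbl monocytes. Cfl1 had 101 and 20.9 in shXbp1 monocytes, against 126 and 127 in shScrmbl monocytes. Arpc4 had 0 and 20.9 in shXbp1 monocytes, against 27.9 and 63.7 in shScrmbl monocytes. None of the 3 passed the test, with limma adjusted p of 0.887 for each and differences of -0.86, -1.43 and -3.21. Such a gap was common here, in 25% of all monocyte genes with shXbp1 lower and in 9.85% with shXbp1 higher, so 3 of 10 is near the background.

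The remaining monocyte genes overlapped. Arpc3 had 506 and 523 in shXbp1 monocytes, against 475 and 656 in shScrmbl monocytes. Actr3 had 303 and 147 in shXbp1 monocytes, against 252 and 409.8 in shScrmbl monocytes. The intervals of these were wide, at -1.43 to 1.19 for Arpc3 and -2.05 to 0.85 for Actr3. Arpc5 had 152 and 272 in shXbp1 monocytes, against 238 and 291 in shScrmbl monocytes, and Actr2 had 0 and 105 in shXbp1 monocytes, against 55.9 and 91.1 in shScrmbl monocytes. Pfn1 spread most within a group, at 50.6 and 314 in shXbp1 monocytes, against 168 and 173 in shScrmbl monocytes. All 10 genes had a lower mean log signal in shXbp1 monocytes, although for Arpc1b the difference was -5.0e-05. Their median was -0.53, beside -0.42 over all genes, and by edgeR 8 were lower and 2 higher. None of the 10 passed the test. Over all monocyte genes limma called 2.68%, edgeR called 0.0265% and 4.77% had an unadjusted limma p under 0.05. Monocyte markers summed to 6724 to 19261 in shXbp1 and 22673 to 23979 in shScrmbl monocytes, and lymphocyte markers to 3590 to 4397 in shXbp1 and 2049 to 3382 in shScrmbl monocytes. The 8 measured neutrophil markers of 10 summed to 354 and 209 in shXbp1, against 908 and 774 in shScrmbl monocytes, and the 2 measured astrocyte markers of 13 to 50.6 and 126 in shXbp1, against 154 and 228 in shScrmbl monocytes. The 2 measured choroid plexus and ependyma markers of 8 summed to 8039 and 5192 in shXbp1, against 3745 and 4826 in shScrmbl monocytes. In the first shXbp1 library this sum exceeded that of the monocyte markers (6724). All of these lists separated the viruses. The part of these in the monocyte values was not tested.

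Astrocytes, the cells at which the hairpin was aimed, showed no separation in any of the 9 genes. Arpc1b had 205, 159, 83.3 and 113 in shXbp1 astrocytes, against 60.2, 177, 79.9 and 110.3 in shScrmbl astrocytes. The ranges overlapped over most of their length (difference 0.42, 95% interval -0.54 to 1.38, limma adjusted p = 0.854). Arpc2 had 222, 231, 271 and 212 in shXbp1 astrocytes, against 181, 269.9, 133 and 27.6 in shScrmbl astrocytes. Its 4 shXbp1 libraries were close together and the shScrmbl libraries spread widely, and the difference of 0.998 had the lowest unadjusted p among the 9 (0.0795, limma adjusted p = 0.824). It was 0.32 without the fourth shScrmbl library, and 0.41 by edgeR. Ssh2 had 85.3, 72.2, 52.0 and 99.6 in shXbp1 astrocytes, against 40.1, 177, 26.6 and 55.2 in shScrmbl astrocytes, again overlapping (difference 0.39, 95% interval -0.79 to 1.57, limma adjusted p = 0.876).

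The other astrocyte values were scattered. Actr3 had 136, 129.9, 104 and 139 in shXbp1 astrocytes, against 120.4, 92.8, 133 and 27.6 in shScrmbl astrocytes. Cfl1 was the only one of the 9 with a lower mean log signal, at 17.1, 38.5, 41.6 and 79.7 in shXbp1 astrocytes, against 100.3, 50.6, 79.9 and 27.6 in shScrmbl astrocytes. The interval of Cfl1 was -1.96 to 0.81 (limma adjusted p = 0.860). Arpc3, Arpc5, Actr2 and Pfn1 had signals of 0 to 202 over all 8 libraries, with limma adjusted p of 0.830 to 0.967. In the fourth shScrmbl library, the shallowest astrocyte library at 32842 counts, Arpc3, Actr2 and Pfn1 were at 0. Of the 9 genes, 8 were higher by limma and 6 by edgeR. Their limma median was 0.42, beside 0.42 over all genes, and their edgeR median was 0.41, beside 0.05. No astrocyte gene in the table passed limma (0%), and edgeR called 0.0157%. An unadjusted limma p under 0.05 occurred in 4.68% of genes and in none of the 9. Groups were apart in none of the 9, against 2.37% of genes with shXbp1 higher and 0.785% with shXbp1 lower over the table. Markers of other cells stood out in the second shScrmbl library, where the 15 microglial markers summed to 5617 and the 9 measured monocyte markers to 4744. Over all astrocyte libraries these sums were 1946 to 2570 in shXbp1 and 1705 to 5617 in shScrmbl for microglia, and 478 to 1410 in shXbp1 and 461 to 4744 in shScrmbl for monocytes. That same library had the highest shScrmbl values of Arpc1b, Ssh2, Arpc2 and Arpc3, and the part of these cells in them was not tested.

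**Figure D4:**
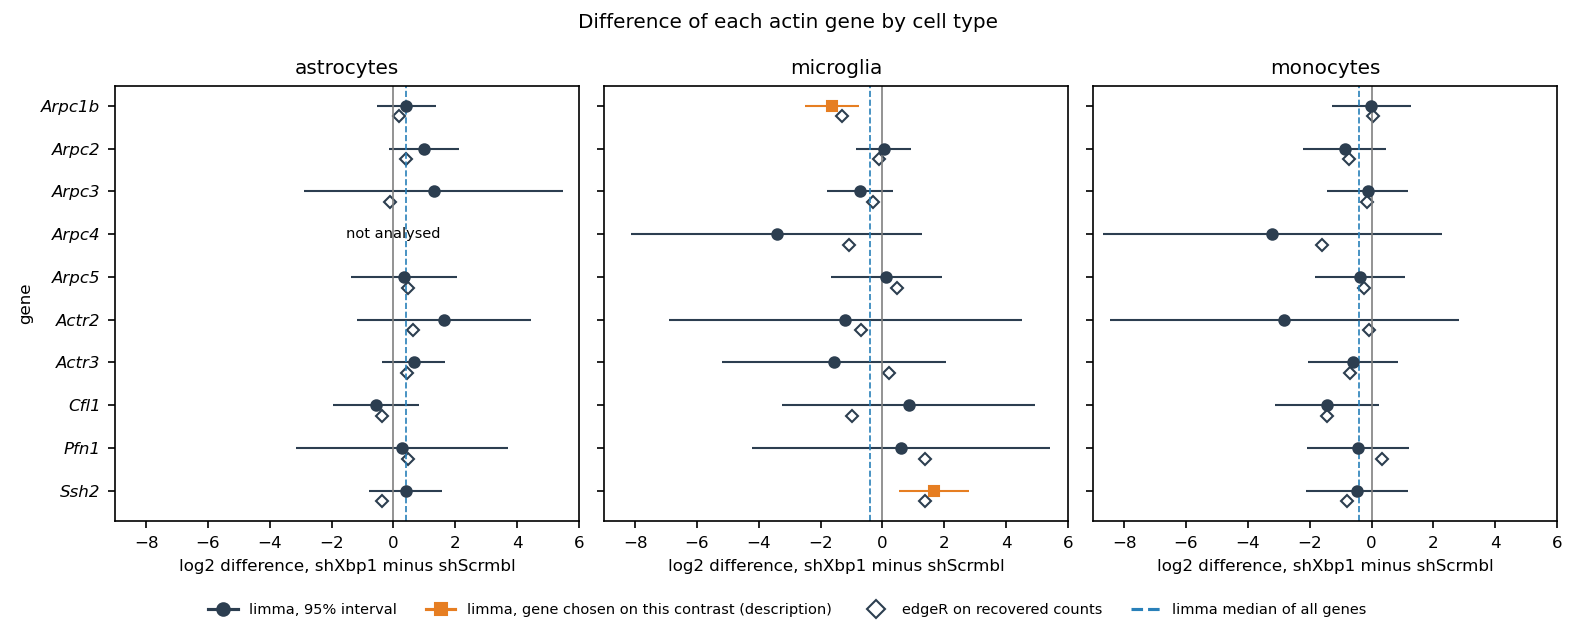
Differences of the 10 genes, shXbp1 minus shScrmbl, on the log2(signal + 1) scale with 95% limma intervals, 1 panel per sorted cell type, with edgeR values as diamonds and a dashed line at the limma median of all genes. Arpc1b at -1.63 and Ssh2 at 1.67 in microglia, both selected on these values, are drawn in orange as a description. Nothing is read from where these orange intervals lie. The intervals of the tested differences cross 0.

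Across cell types the levels of the genes differed in order. Arpc1b averaged 123 in astrocytes, 516 in microglia and 746 in monocytes over all libraries, with ranges of 60.2 to 205, 138 to 840.0 and 607 to 900.3. Arpc2 averaged 193, 380.0 and 502, Arpc3 averaged 118, 341 and 539.9, and Arpc5 averaged 40.8, 95.9 and 238 over the same cell types. Actr3 averaged 110.5 in astrocytes and 114 in microglia, which overlapped, and 278 in monocytes. Ssh2 departed from this order, at 76.0 in astrocytes, 216 in microglia and 86.1 in monocytes. These means pool the viruses, and Arpc1b and Ssh2 were selected on shXbp1 against shScrmbl in microglia. In shScrmbl libraries alone Arpc1b averaged 107 in astrocytes, 716 ± 95.4 in microglia and 739 ± 2.16 in monocytes. Ssh2 averaged 74.8, 120 ± 56.6 and 101 ± 63.5 in those libraries (SD, n = 4 for microglia and 2 for monocytes). Since each table was normalized alone, these orders are descriptions. Astrocytes overlapped with microglia, and microglia with monocytes, in the range of each of these 6 genes. Overlapping ranges do not mean equal levels: Arpc2 was at 193 ± 80.8 in astrocytes and 380.0 ± 82.2 in microglia (SD, n = 8 and 7). For Arpc1b the overlap with astrocytes rested on shXbp1 microglia, since shScrmbl microglia ran from 616 to 840.0. Astrocytes and monocytes did not overlap for Arpc1b, Arpc3, Arpc5 and Actr3. Of the other genes, Actr2 averaged 34.0, 36.2 and 62.9, Cfl1 averaged 54.4, 78.8 and 93.8, and Pfn1 averaged 28.1, 65.0 and 176 in the same order of cell types. Arpc4 averaged 55.9 in microglia and 28.2 in monocytes.

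The wider actin machinery was read from 7 lists holding 85 further genes. No gene of these lists passed the adjusted threshold by limma or edgeR in any cell type. In astrocytes, 55 were measured, with 35 higher and 20 lower by limma and a median of 0.23 beside 0.42 over all genes. By edgeR 26 were higher and 29 lower, with a median of -0.038 beside 0.052. Microglia had 43, of which 10 were higher and 33 lower, with a median of -0.73 beside -0.39 over all genes. By edgeR the microglial median was -0.33 beside -0.09. Monocytes had 46, with 13 higher and 33 lower by limma and a median of -0.31 beside -0.42 over all genes. By edgeR 19 were higher and 27 lower, with a median of -0.14 beside -0.17. List by list, the microglial genes with a lower mean log signal were 10 of 12 Arp2/3 activators, the 1 measured paralog subunit, 3 of 4 inhibitors and branch remodelling genes, 1 of 2 cofilin cycle genes, 3 of 4 genes of actin monomers and thymosins, 6 of 8 capping, severing and elongation genes, and 9 of 12 crosslinker, tropomyosin, myosin and membrane linker genes. By edgeR the activators came to 8 of 12, and the other counts stayed as they were. In astrocytes the lower ones were 7 of 13 activators, 0 of 2 paralog subunits, 2 of 5 inhibitors, 1 of 5 cofilin cycle genes, 1 of 5 monomer genes, 2 of 9 capping genes and 7 of 16 crosslinkers. By edgeR these astrocyte counts were 9 of 13, 1 of 2, 4 of 5, 0 of 5, 1 of 5, 6 of 9 and 8 of 16, so the inhibitors and the capping genes turned. In monocytes they were 12 of 13 activators, the 1 paralog subunit, 4 of 6 inhibitors, 2 of 3 cofilin cycle genes, 1 of 4 monomer genes, 5 of 7 capping genes and 8 of 12 crosslinkers, and by edgeR 9 of 13 activators, 3 of 6 inhibitors and 6 of 12 crosslinkers with the rest as before.

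**Figure D5:**
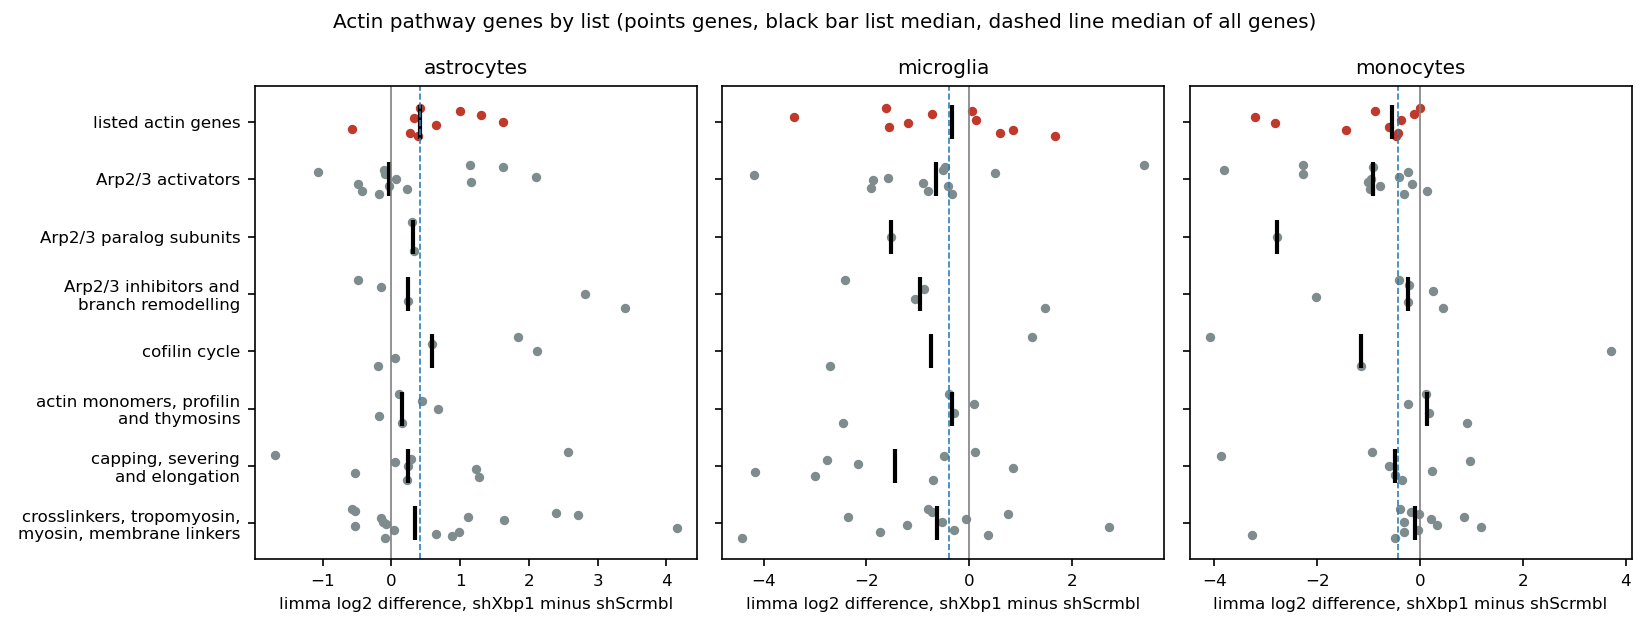
Differences, shXbp1 minus shScrmbl on the log2(signal + 1) scale, of each measured gene (points) by list in the 3 cell types, the 10 genes in red, with black bars at the list medians and dashed lines at the median of all genes. In microglia 6 of the 7 further lists have a median left of the dashed line at -0.39, from -1.52 for the 1 paralog subunit to -0.63 for the crosslinkers, and the actin monomer list, at -0.35, does not.

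Among the activators, Rac2, the haematopoietic Rac GTPase, averaged 265 ± 82.4 in shXbp1 microglia and 459 ± 99.8 in shScrmbl microglia (SD, n = 3 and 4; difference -0.81, limma adjusted p = 0.804), and its shXbp1 libraries all lay below its shScrmbl libraries. Cdc42, which activates N-WASP, averaged 472 ± 131 in shXbp1 and 589 ± 105 in shScrmbl microglia, and Cyfip1, a WAVE complex subunit gene, averaged 517 ± 149 in shXbp1 and 390 ± 203 in shScrmbl. None of the 12 activator genes measured in microglia passed the test, and 10 had a lower mean log signal. The actin genes themselves were abundant: Actb averaged 4566 ± 1303 in shXbp1 and 5994 ± 1621 in shScrmbl microglia, and Tmsb4x, a thymosin that holds monomers, 12579 ± 4359 in shXbp1 and 15081 ± 2858 in shScrmbl. In monocytes Actb averaged 12250 ± 980.0 in shXbp1 and 11288 ± 1012 in shScrmbl libraries, and Rac2 averaged 1297 ± 475 in shXbp1 and 1145 ± 99.9 in shScrmbl (SD, n = 2 each). Lcp1, the leukocyte bundling protein plastin-2, in microglia averaged 541 ± 269 in shXbp1 and 896 ± 264 in shScrmbl. None of these genes passed the test.

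Dstn, destrin, a close relative of cofilin, was the 1 of 43 further genes with shXbp1 microglia fully higher, beside 2.32% over all genes. The 2 fully lower, beside 4.92% over all genes, were Rac2 and the formin gene Fmnl3, named after its values were seen (difference -3.001). Dstn averaged 242 ± 53.7 in shXbp1 microglia and 117 ± 57.9 in shScrmbl microglia (SD, n = 3 and 4), with a difference of 1.21 and a limma adjusted p of 0.804. Cfl1 supplied 4 of 20 counts of the Cfl1 and Dstn pair in shXbp1 microglia (20%) and 28 of 61 in shScrmbl microglia (45.9%). These 4 counts leave the share loose. In astrocytes Dstn supplied most of the family, with Cfl1 at 25 of 375 counts (6.67%) in shXbp1 and 21 of 233 (9.01%) in shScrmbl. Ezr, ezrin, which ties actin to the membrane, was the astrocyte gene of the lists with the lowest limma p, at 463 ± 85.3 in shXbp1 and 242 ± 81.2 in shScrmbl (SD, n = 4 each; difference 0.99, limma adjusted p = 0.824). In monocytes it was Coro1b, a coronin that frees branches from the complex, at 35.7 ± 20.9 in shXbp1 and 136 ± 14.1 in shScrmbl (SD, n = 2 each; difference -2.02, limma adjusted p = 0.562). Coro1b was named after its values were seen.

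Some counts could have come from neighbours. Pdap1, on the opposite strand, overlaps the 3′ end of Arpc1b. It averaged 39.0 ± 35.4 in shXbp1 and 60.5 ± 50.7 in shScrmbl microglia (SD, n = 3 and 4). Ttll3 overlaps Arpc4 on the same strand, and Snx32 overlaps Cfl1 on the other. Pseudogenes match the last 300 bases of Arpc1b (1 copy), Actr3 (2 copies) and Cfl1 (1 copy) at 95% identity or more, so their counts are uncertain where such reads were split or dropped.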

How the data were processed

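The authors deposited 1 table per cell type holding a normalized signal per gene and library of sorted-cell 3′ digital gene expression. Tools listed in the submitters' processing notes, with no role stated, are BWA 0.7.10 and limma 3.34.1, beside the build mm10, and the counter, strand setting and scaling are not given in the sources used here. The deposited signal in every column was a whole count times a step: 100% of the 45664, 18589 and 13747 values above 0 (astrocytes, microglia, monocytes) came out whole within 0.01. The sources do not say if reads or molecules were counted, and intervals cover counting error only. Per the labels' protocols each nervous system came from 1 mouse.

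Models compared the viruses within 1 cell type at a time, without covariates. limma 3.58.1 in R 4.3.3 (trend, robust) was run on log2(signal + 1) over 6366, 3066 and 3775 genes that reached a signal of 1 in enough libraries to fill the smaller group, and p-values were adjusted by Benjamini-Hochberg over all genes of a table. All members passed that filter. edgeR 4.0.16 (quasi-likelihood) and DESeq2 1.42.0 ran on recovered counts as alternatives, beside log2(signal + 50), no filter, quantile normalization, a replicate block and each library left out in turn. Shares have exact Clopper-Pearson 95% intervals. Copies of 3′ ends were sought with BLAST 2.17.0. The fits were tested on simulated data. No 2 libraries held identical values, and chi-square per gene between replicates was 1.46 to 4.91 over 23 pairs.

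The members and lists were chosen with earlier results of these data known. Named besides the 10 genes were up to 3 genes of each list by mean signal, the 3 most like Arpc1b and Ssh2, and markers. limma called 0, 0 and 101 genes, edgeR 1, 12 and 1 in the 3 tables.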

Additional observations from a re-analysis of the deposited data

How the results depend on the processing

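The fewest counts limit these results, since 1 count can be worth a signal of 76.0. In microglia Arpc1b lay between -1.997 and -1.26 with any 1 library left out and between -1.63 and -1.31 under the other settings, and Ssh2 between 1.21 and 1.88 and between 1.21 and 2.06. None of the other microglial genes, and no listed gene in astrocytes or monocytes, passed the adjusted threshold under a setting that kept all libraries. The number of genes called was 1 by edgeR in astrocytes. It was 1 with log2(signal + 50), 6 with quantile normalization, 12 by edgeR and 0 to 3 with a library left out in microglia. Monocytes gave 0 with log2(signal + 50), 0 with quantile normalization, 1 by edgeR, 0 by DESeq2 and 0 to 1163 with a library left out, where 486 came without the first and 1163 without the second shXbp1 library, a design in which the lone library is assumed to vary like the other group. Of 174 differences of the genes under other settings 18 changed sign. With quantile normalization Arpc5 was at -0.091 in astrocytes and Cfl1 at -0.40 in microglia. With log2(signal + 50) Cfl1 was at -0.12 in microglia and Arpc1b at 0.0016 in monocytes. By edgeR and DESeq2, Arpc3 was at -0.11 and -0.16 and Ssh2 at -0.36 and -0.29 in astrocytes. In microglia Arpc2 was at -0.11 and -0.037, Actr3 at 0.20 and 0.24 and Cfl1 at -0.97 and -0.74, and in monocytes Arpc1b at 0.056 and 0.084 and Pfn1 at 0.34 and 0.27. The cause was not tested. Of 180 differences with a library left out, 24 changed sign and 5, all in monocytes, passed the threshold: Cfl1 at -2.54 without the first shXbp1 library, and Arpc2 at -1.33, Arpc4 at -5.44, Actr2 at -6.18 and Pfn1 at -1.73 without the second. Arpc2 in astrocytes ranged from 0.32 to 1.401. The ranges that crossed 0 were -0.51 to 2.04 for Arpc3 and -0.97 to 1.61 for Pfn1 in astrocytes. In microglia they were -0.12 to 0.24 for Arpc2, -1.20 to 0.046 for Arpc3, -0.27 to 0.36 for Arpc5, -2.89 to 0.96 for Actr3, -0.87 to 1.51 for Cfl1 and -0.81 to 3.02 for Pfn1. In monocytes they were -0.28 to 0.28 for Arpc1b, -0.35 to 0.11 for Arpc3, -0.79 to 0.049 for Arpc5, -6.18 to 0.55 for Actr2, -1.73 to 0.88 for Pfn1 and -1.15 to 0.22 for Ssh2. The deviations of same-numbered libraries had correlations of -0.004 to 0.06 in astrocytes, -0.002 to 0.06 in microglia and -0.08 in monocytes. With 2 libraries per group the monocyte deviations mirror each other, so both replicates give the same value. Counting error adds to all deviations at these depths. Low correlations therefore cannot show that such libraries share no mouse or batch. The fit with the replicate block called 0, 0 and 112 genes in astrocytes, microglia and monocytes.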
